A study of Mus musculus with 12 samples.

Results

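Pttg1, Slu7, Pwwp2a, Ttc1 and Ublcp1 are protein-coding genes that lie beside Mir146, the gene of miR-146a, on mouse chromosome 11. They were taken as listed neighbors whose start lies within about 1.5 Mb of Mir146, 5 of the 24063 genes in the deposited table, and each was represented by its RefSeq transcript with the highest mean over the 12 libraries. Their levels were examined library by library, because a floxed and recombined allele can alter genes that flank it. RNA was sequenced from sorted spleen B cells of C57BL/6 mice in 4 groups of 3 libraries. Naive B cells were sorted as B220+ cells from mice that had not been immunized, either WT or B-KO. GC B cells were sorted as B220+PNA+GL7+ cells from mice of both genotypes on day 14 of a response to sheep red blood cells (SRBC). B-KO mice carry the miR-146a fl/fl allele and CD21-cre, which is active from the mature B cell stage, so other cells of the mouse retain the floxed sequence. The floxed allele was made by recombineering, its neomycin cassette was removed with a Flp deleter strain, and WT mice were littermates. Mice were 8 to 10 weeks old unless stated otherwise in the study. The sources used here do not say which floxed or cre alleles the individual WT littermates carried, nor whether a library holds 1 mouse or a pool.

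miR-146a is a short RNA that is induced by NFκB and lowers the mRNA of its targets, mainly through pairing of its seed with sites in 3′ UTRs, and its gene is not the host of any of the 5 neighbors. The neighbors belong to unrelated cell functions. Pttg1 encodes securin, which holds separase inactive until chromosomes part in anaphase. Slu7 encodes a factor that helps the spliceosome choose the 3′ splice site in the second step of splicing. Pwwp2a encodes a chromatin protein that binds nucleosomes with the histone variant H2A.Z and parts of the NuRD complex, Ttc1 an adaptor with tetratricopeptide repeats, a fold through which such proteins bind HSP70 and HSP90 chaperones, and Ublcp1 a phosphatase with a ubiquitin-like domain that acts on the 26S proteasome.

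In mm10, Mir146 lies on chromosome 11 at 43374397 to 43374461 on the minus strand. Pttg1 (43420248 to 43426248, minus strand) and Slu7 (43433731 to 43447981, plus strand) have their starts 51.8 and 59.3 kb away. Pwwp2a (43681998 to 43722633, plus strand) starts at 308 kb and Ttc1 (43730006 to 43747973, minus strand) at 374 kb, and Ublcp1 (44454571 to 44470548, minus strand) is the most distant at 1096 kb. The listed transcripts of 18 symbols start within 1.5 Mb of Mir146. Of these, 10 reached an RPKM of 1 in 3 or more libraries and were tested, among them all 5 neighbors described here and, beside Mir146 itself, Atp10b, Ccnjl, Rnf145 and Ebf1. Another 5 had a value of 0 in every library, and the 3 left over had at most 5 reads in any library.

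The mature sequences of the miR-146 family from RefSeq (GRCm38.p6) are shown because the seed (bases 2 to 8, in capitals) is the part by which the deleted miRNA pairs with targets. miR-146b, from chromosome 19, has the same seed.
mmu-miR-146a-5p: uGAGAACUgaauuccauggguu
mmu-miR-146b-5p: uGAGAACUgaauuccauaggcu
A match to this seed, AGTTCTC on the transcript strand, was looked for in the longest 3′ UTR that GENCODE vM21 gives for each neighbor. Of 21022 genes with a 3′ UTR, 11.2% held it. Pttg1, Slu7, Pwwp2a and Ttc1 held 0 matches in 3′ UTRs of 799, 1793, 992 and 1095 bases. Ublcp1 held 1 match, at base 167 of a 3′ UTR of 1020 bases, shown here with its flanks and with the match in capitals.
Ublcp1 site: aacaaacaaacaaaaAGTTCTCttccctct
A match is a description of letters and not a shown site of action.

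Promoters from RefSeq (GRCm38.p6, 250 bases before to 50 after the start, read along the gene's strand) are printed for Pwwp2a and Ttc1, whose patterns over the libraries were the closest pair among the neighbors, and for Ublcp1, whose pattern differed. Capitals mark, on either strand, the CCAAT box (CCAAT), the GC box, whose letters are GGGCGG, and the core that ETS factors bind, here CCGGAA. The TATA box, as TATAAA, was also looked for and was found in none of the 3. The Pwwp2a promoter (chr11:43681748-43682047, plus strand) held 4 CCAAT boxes and 3 GC boxes.
Pwwp2a: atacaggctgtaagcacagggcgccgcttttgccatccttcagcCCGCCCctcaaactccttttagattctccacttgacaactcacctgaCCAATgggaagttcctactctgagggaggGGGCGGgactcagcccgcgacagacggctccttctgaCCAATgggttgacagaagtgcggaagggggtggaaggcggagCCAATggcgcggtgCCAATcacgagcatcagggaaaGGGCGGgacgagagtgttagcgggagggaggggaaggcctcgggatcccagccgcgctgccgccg
The Ttc1 promoter (chr11:43747959-43748258, minus strand) held 2 CCAAT boxes and 1 ETS core.
Ttc1: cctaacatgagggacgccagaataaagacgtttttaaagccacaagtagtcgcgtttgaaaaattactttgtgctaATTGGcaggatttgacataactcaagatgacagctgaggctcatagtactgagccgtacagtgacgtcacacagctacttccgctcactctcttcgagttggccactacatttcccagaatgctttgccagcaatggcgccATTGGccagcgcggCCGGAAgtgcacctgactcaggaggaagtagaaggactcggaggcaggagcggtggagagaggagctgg
The Ublcp1 promoter (chr11:44470499-44470798, minus strand) held 3 ETS cores and 2 GC boxes and no CCAAT box.
Ublcp1: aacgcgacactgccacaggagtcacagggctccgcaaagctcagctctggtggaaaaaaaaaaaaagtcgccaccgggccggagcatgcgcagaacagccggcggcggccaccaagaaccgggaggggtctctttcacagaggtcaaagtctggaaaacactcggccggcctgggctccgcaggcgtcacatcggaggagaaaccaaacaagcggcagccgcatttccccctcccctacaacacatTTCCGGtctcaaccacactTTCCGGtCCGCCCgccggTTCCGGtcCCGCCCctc
The Pttg1 promoter held none of the 4 motifs. Among 32851 promoters of the same length, 37.4% held a CCAAT box, 35.7% a GC box, 14.9% an ETS core and 13.6% a TATA box, so a match to any of these letters is common.

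The deposited values are RPKM, reads per kilobase of transcript scaled by the authors to 10000000 per library, and they can be compared between genes because they are divided by length. Libraries held 22945634 to 39118224 reads assigned to transcripts, as worked out from the values. The reads behind a neighbor's value were at fewest 350 for Pttg1, 1604 for Slu7, 767 for Pwwp2a, 499 for Ttc1 and 793 for Ublcp1, which gives a counting error of 2.5 to 5.3%. In B cell identity the libraries followed their labels, with 6 of 6 GC B cell markers higher and 4 of 4 naive markers lower in WT GC than in WT naive B cells (limma, adjusted p under 0.05). Summed RPKM of the 6 GC B cell markers was 259 to 446 in WT naive, 381 to 1207 in B-KO naive, 6155 to 7025 in WT GC and 5305 to 7253 in B-KO GC libraries. Mir146 itself had 2, 0 and 0 reads in the WT naive libraries, 0, 4 and 0 in the WT GC libraries, 0 in each B-KO naive library and 0, 0 and 1 in the B-KO GC libraries, too few to check the deletion.

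Of the 12 libraries, 3 stood apart for 4 of the 5 neighbors. WT naive replicate 1, WT GC replicate 2 and WT GC replicate 3 held more Slu7, Pttg1, Pwwp2a and Ttc1 RNA than the other 9 libraries, whereas Ublcp1 did not follow them. These libraries share a genotype label with WT naive replicates 2 and 3 and WT GC replicate 1, in which the same genes lay near or below the B-KO levels. Fold changes that rest on these libraries are therefore given with all libraries and without the 3. As the 3 were singled out by the values of these same genes, the values without them are a description and carry no test.

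Slu7 showed the widest spread. In WT naive B cells its RPKM was 673, 195 and 204 in replicates 1 to 3, and in B-KO naive B cells 193, 199 and 192. In WT GC B cells it was 166, 522 and 536, and in B-KO GC B cells 219, 296 and 219.6. WT naive replicate 1 was thus far above its 2 fellow replicates, WT GC replicates 2 and 3 were far above replicate 1, and the B-KO libraries lay near the lower WT libraries, those of GC B cells inside the WT range and those of naive B cells at its lower end. The ratio of the highest to the lowest replicate was 3.45 in WT naive and 3.24 in WT GC libraries, against 1.04 in B-KO naive and 1.35 in B-KO GC libraries. The group means were 408 ± 210.0 in WT GC, 357 ± 273 in WT naive, 245 ± 44.6 in B-KO GC and 195 ± 3.93 in B-KO naive B cells (SD, n = 3). In that order, only the last neighbors, B-KO GC and B-KO naive, did not overlap. The second RefSeq transcript of Slu7 had the same ratios of highest to lowest replicate, 3.45 and 3.25 in the WT groups.

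Pttg1, next to Slu7 on the side of Mir146 and on the other strand, followed it. Its RPKM was 463, 157 and 168 in WT naive and 185, 207 and 208 in B-KO naive B cells. The WT GC libraries had 168, 296 and 302 and the B-KO GC libraries 190.4, 207 and 170.4. The same 3 WT libraries were the highest of all 12, while WT naive replicates 2 and 3 lay below all 3 B-KO naive libraries. Replicates differed by 2.94-fold in WT naive and 1.80-fold in WT GC B cells, and by 1.13-fold and 1.21-fold in B-KO naive and B-KO GC B cells. Group means ran from 263 ± 174 in WT naive through 255 ± 75.7 in WT GC and 200.3 ± 13.2 in B-KO naive to 189 ± 18.1 in B-KO GC B cells (SD, n = 3), and no neighbors in this order differed beyond their spread. In the longer of its transcripts the replicates differed by 2.77-fold in WT naive and 2.02-fold in WT GC B cells.

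Pwwp2a, the H2A.Z reader, had an RPKM of 176, 90.0 and 85.0 in WT naive and 84.8, 81.2 and 81.7 in B-KO naive B cells. In GC B cells it had 91.1, 182 and 157 in WT and 83.2, 98.5 and 103 in B-KO libraries. Highest and lowest replicate differed by 2.08-fold and 2.002-fold in the WT groups and by 1.04-fold and 1.23-fold in the B-KO groups. The means were 144 ± 47.1 in WT GC, 117 ± 51.4 in WT naive, 94.8 ± 10.2 in B-KO GC and 82.6 ± 1.92 in B-KO naive B cells (SD, n = 3). Each pair of neighbors in this order overlapped, and all 3 B-KO naive libraries were below all 3 WT naive libraries, by a margin of 84.8 to 85.0 at the closest.

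Ttc1, the chaperone adaptor, had 306, 139.6 and 152 in WT naive B cells. Its RPKM in B-KO naive B cells was nearly constant at 152, 153 and 153. In GC B cells it was 168, 359 and 304 in WT and 188, 233 and 210.3 in B-KO libraries. The fold between highest and lowest replicate was 2.19 in WT naive and 2.14 in WT GC libraries, and 1.004 in B-KO naive and 1.24 in B-KO GC libraries. Mean levels were 277 ± 98.5 in WT GC, 210.2 ± 22.4 in B-KO GC, 199 ± 92.4 in WT naive and 153 ± 0.292 in B-KO naive B cells (SD, n = 3), with overlap between each pair of neighbors in this order.

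Ublcp1, the proteasome phosphatase and the most distant of the 5, behaved differently. Its RPKM was 149, 142 and 156 in WT naive and 159.7, 161 and 163 in B-KO naive B cells. In GC B cells it was 249, 231 and 200.3 in WT and 267, 205 and 274 in B-KO libraries. WT naive replicate 1 lay between its fellow replicates, and WT GC replicates 2 and 3 were the lower ones of their group. The replicates differed by 1.10-fold and 1.24-fold in the WT groups and by 1.02-fold and 1.34-fold in the B-KO groups. Group means were 249 ± 38.02 in B-KO GC, 227 ± 24.5 in WT GC, 161 ± 1.52 in B-KO naive and 149 ± 7.05 in WT naive B cells (SD, n = 3). Both GC groups lay above both naive groups without overlap, whereas B-KO GC and WT GC overlapped each other and the naive groups were separated by a narrow gap.

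**Figure D1:**
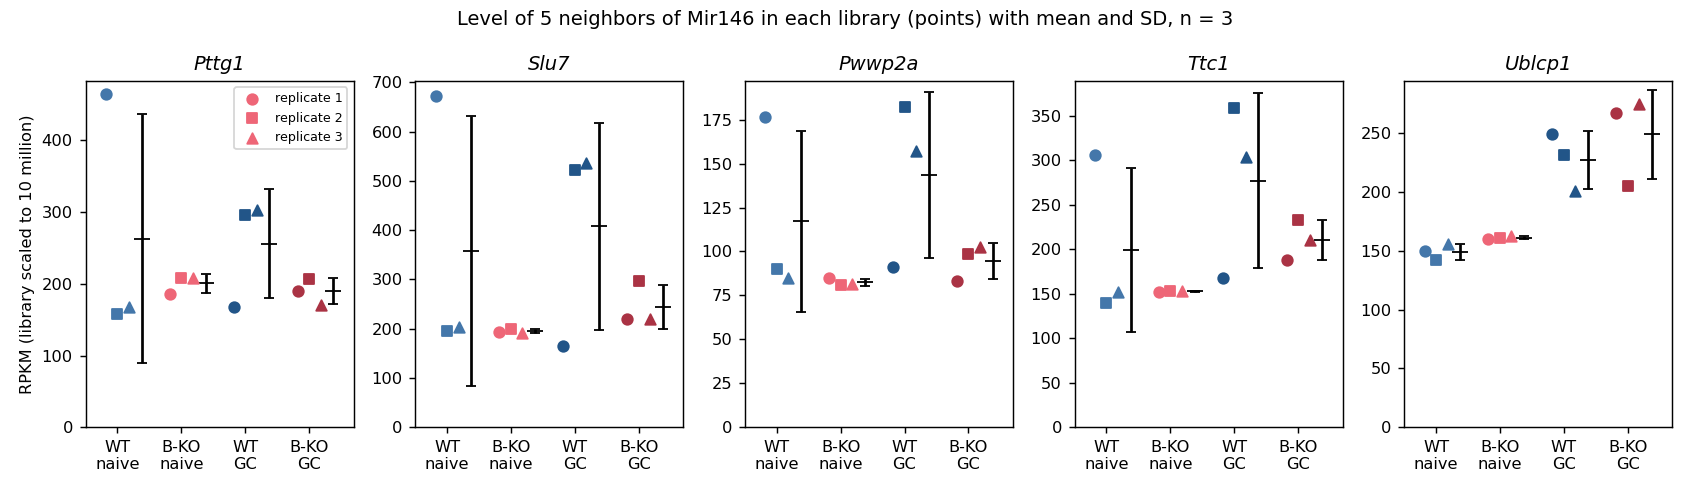
RPKM of the 5 neighbors (vertical axis, from 0, one panel a gene) in each of 12 libraries, with the group on the horizontal axis, a circle, square or triangle for replicate 1, 2 or 3, and a bar for the mean and SD (n = 3). WT naive replicate 1 and WT GC replicates 2 and 3 stand above the other libraries for Pttg1, Slu7, Pwwp2a and Ttc1 (Slu7 at 673, 522 and 536) and not for Ublcp1.

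The highest and lowest replicate were then compared for the 10602 genes with a mean RPKM of at least 10. The median ratio was 1.15 in WT naive, 1.16 in B-KO naive and 1.21 in both WT GC and B-KO GC libraries. A ratio of at least 1.5 was reached by 9.05% of genes in WT naive, 12.8% in B-KO naive, 17.8% in WT GC and 18.4% in B-KO GC libraries. Slu7 ranked 132 and Pttg1 160 among all genes in the WT naive libraries, with Ttc1 at 268 and Pwwp2a at 302. In the WT GC libraries, where wide ratios were more common, Slu7 ranked 238, Ttc1 650, Pwwp2a 774 and Pttg1 1044. A ratio of at least 1.5 in both WT groups and under 1.5 in both B-KO groups was found for 40 genes (0.377%), and 4 of them were neighbors of Mir146. The pattern asked for is the one already described for these 4 genes, so their count and places are a description and carry no test. Ordered by the product of the WT ratios, Slu7 was placed 2, Pttg1 8, Ttc1 11 and Pwwp2a 12 of the 40. The only other gene of the 40 on chromosome 11 was Rap1gap2 (ratios of 1.56 and 1.51), which was named after its values were seen. The reverse pattern, wide in both B-KO groups alone, was shown by 94 genes and by none of the neighbors, so wide spread was not rarer in B-KO libraries as a whole. With a limit of 2 in place of 1.5, 15 genes remained, of which 3 were neighbors.

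**Figure D2:**
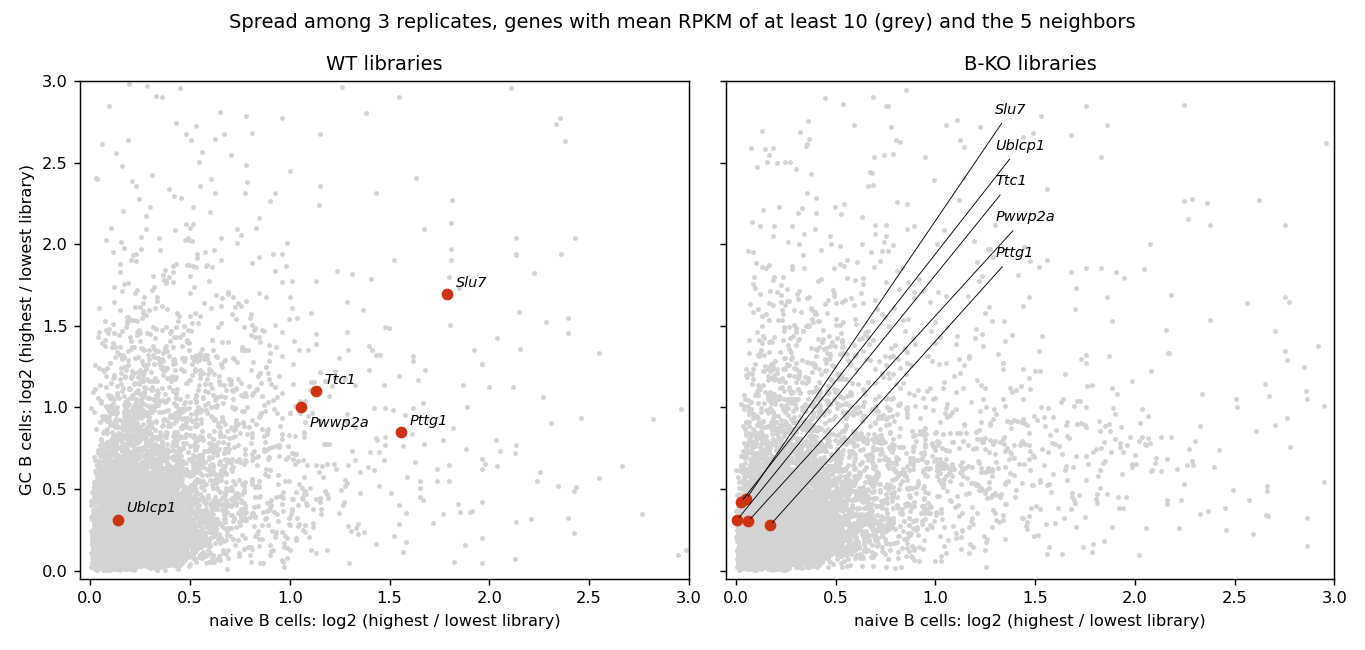
Log2 of the highest over the lowest of 3 replicates in naive B cells (horizontal axis) and GC B cells (vertical axis) for WT (left) and B-KO (right) libraries, with grey points for genes with a mean RPKM of at least 10 and red points for the 5 neighbors. The axes end at 3, which leaves out 108 genes on the left and 137 on the right. Slu7, Pttg1, Pwwp2a and Ttc1 lie away from the bulk in the WT panel only, and Ublcp1 lies within it in both.

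Each WT library was next set against the mean of the 3 B-KO libraries of its cell type. In WT naive replicate 1, Slu7 was 3.45 times, Pttg1 2.31 times, Pwwp2a 2.14 times and Ttc1 2.002 times the B-KO naive mean, and Ublcp1 0.928 times. These ratios ranked Slu7 at 4, Pttg1 at 16, Pwwp2a at 18 and Ttc1 at 26 of 10576 genes. In WT GC replicate 2 the ratios were 2.13 for Slu7, 1.56 for Pttg1, 1.92 for Pwwp2a and 1.71 for Ttc1, with ranks of 22, 83, 34 and 51 of 10591 genes. WT GC replicate 3 gave 2.19, 1.60, 1.66 and 1.45 in the same order of genes, with ranks of 46, 188, 159 and 291 of 10582 genes. Ublcp1 stood at 0.931 and 0.806 times the B-KO GC mean in these libraries. The excess was therefore largest for Slu7 in all 3 libraries, and larger in the naive library than in the GC libraries for each of the 4 genes. As the 3 libraries were singled out by the values of these 4 genes, the ratios and ranks are a description and carry no test.

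The other WT libraries, set apart by their lower values of the same 4 genes, showed no such excess. Slu7 was 1.002 and 1.05 times the B-KO mean in WT naive replicates 2 and 3, and Pwwp2a 1.09 and 1.03 times. Pttg1 stood lower, at 0.786 and 0.837 times, and Ttc1 at 0.915 and 0.997 times. In WT GC replicate 1, all 4 genes were under the B-KO GC mean, at 0.676 for Slu7, 0.797 for Ttc1, 0.889 for Pttg1 and 0.960 for Pwwp2a.

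Along the chromosome the excess was seen as far as Ttc1, at 374 kb, and not at Ublcp1, at 1096 kb. No gene between them was tested, so where it ended is not resolved. Ccnjl, which encodes a cyclin J-like protein and lies between Slu7 and Pwwp2a, was barely transcribed, with 16, 2 and 0 reads in WT naive, 0, 0 and 3 in B-KO naive, 0, 19 and 23 in WT GC and 3, 10 and 6 in B-KO GC libraries. It reached an RPKM of 1 only in the 3 high WT libraries and in B-KO GC replicate 2, and so was tested through the very libraries in question, and its values lend no support to the pattern. Beyond Ublcp1, the ubiquitin ligase gene Rnf145 stood at 1.02, 0.901 and 1.05 times the B-KO mean in the 3 high libraries. Ebf1, the gene of an early B cell transcription factor, stood at 1.05, 1.09 and 1.32 times. On the other side of Mir146, Atp10b, which encodes a lipid-transporting ATPase, had 3 reads in WT naive replicate 1 and 63 and 19 in WT GC replicates 2 and 3, against 50 in WT GC replicate 1. It was the only tested gene within 1.5 Mb on that side, and the next genes with a mean RPKM of at least 10 lie about 2.6 Mb away. Among these, log2 of the 3 high libraries over the B-KO mean was 0.08, -0.003 and -0.04 for Mat2b and 0.18, 0.02 and -0.11 for Ccng1. It was -1.89, 0.50 and -0.68 for Hmmr and -0.32, 0.30 and -0.38 for Nudcd2. None of these genes was above the B-KO mean in all 3 high libraries. Mir146 had 2 of its reads in WT naive replicate 1 and 4 in WT GC replicate 2, and none in WT GC replicate 3.

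**Figure D3:**
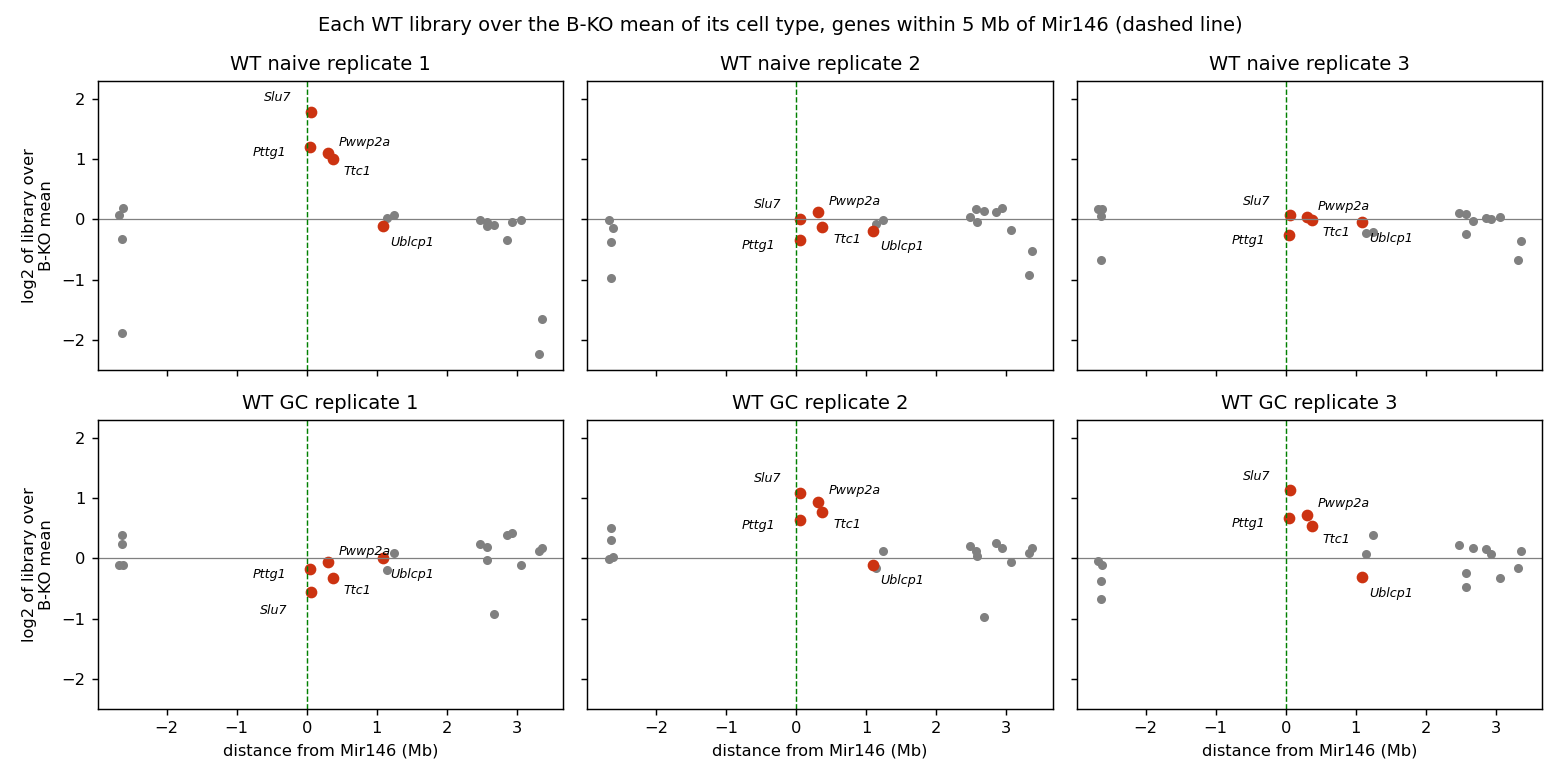
Log2 of each WT library over the B-KO mean of its cell type (vertical axis) against distance of the gene start from Mir146 in Mb (horizontal axis) for the 20 genes with a mean RPKM of at least 10 within 5 Mb, neighbors in red and 15 other genes in grey, one panel a library. Pttg1, Slu7, Pwwp2a and Ttc1 lie 0.53 to 1.79 above 0 in WT naive replicate 1 and WT GC replicates 2 and 3, and not in the other panels, and Ublcp1 lies between -0.31 and 0.00 in all 6.

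The likeness of the patterns was described by the root mean square difference of log2(RPKM + 1) between genes over the 12 libraries, after each gene was centered on its own mean. Among 13703 other genes, the one nearest to Pttg1 was Pwwp2a (0.23), followed by Ttc1 (0.28) and Slu7 (0.31). Pwwp2a was closest to Ttc1 (0.16), then to Pttg1 (0.23) and Slu7 (0.29). The nearest genes to Ttc1 were Pwwp2a (0.16), Cask of the X chromosome (0.25) and Pttg1 (0.28). For Slu7 they were Ccnjl (0.26), which passed the filter through the high libraries as said above, Pwwp2a (0.29) and Ttc1 (0.30). Ublcp1 took rank 7508 from Pttg1, 6568 from Slu7, 5693 from Pwwp2a and 3538 from Ttc1. Its own nearest genes lay on other chromosomes and were Mtrf1 on chromosome 14 (0.064), the splicing factor gene Prpf19 on chromosome 19 (0.072) and Bnip2 on chromosome 9 (0.072). A difference of 0 would mean the same pattern, and the libraries are shared by all genes compared. A flat gene would differ from a neighbor by that neighbor's own root mean square about its mean. This was 0.44 for Pttg1, 0.67 for Slu7, 0.42 for Pwwp2a, 0.45 for Ttc1 and 0.33 for Ublcp1, so differences are not comparable between neighbors. Rnf145, which lacked the excess, took rank 190 from Pttg1 (0.41).

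Markers of other cells and states differed between the libraries as well. Of the 6 naive libraries, WT naive replicate 1, the high one, had the lowest summed RPKM of the 20 mitotic genes (681, against 918 and 1009.9 in WT and 824 to 1951 in B-KO libraries). It was also the lowest of the 6 for GC B cell markers (259), T cell markers (17.6), myeloid markers (42.5) and red cell markers (437). Of the GC libraries, WT GC replicate 3 had the lowest mitotic sum (6579, against 12478 and 12542 in WT GC replicates 1 and 2 and 7057 to 11935 in B-KO libraries). Its myeloid sum was 277, against 93.6 and 93.2 in the other WT GC libraries and 143 to 385 in B-KO GC libraries, and Klf2, a naive B cell marker, stood at 470 against 76.6 and 79.4. B-KO GC replicate 2 had Klf2 at 630 and a mitotic sum of 7057 with Slu7 at 296, the highest B-KO value. WT GC replicates 1 and 2, a low and a high library for Slu7, had near-equal sums for mitotic genes and for myeloid markers, whereas red cell markers summed to 58.1 and 394 in them. The part of these differences in the levels of the neighbors was not tested. Depth was 30494141 reads in WT naive replicate 1, 33651085 and 27020010 in WT GC replicates 2 and 3, within the range of the other libraries. In bulk RNA, a larger share of a cell type and more RNA per cell cannot be told apart.

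The first comparison of the design asked whether deletion of miR-146a changed the neighbors in naive B cells. None of the 5 passed the threshold (limma, adjusted p under 0.05), where 0.0146% of all 13704 tested genes did. Log2 fold changes of B-KO against WT, on the log2(RPKM + 1) scale, were -0.62 (SE 0.50, 95% interval -1.72 to 0.48) for Slu7 and -0.42 (SE 0.28, -1.04 to 0.21) for Pwwp2a. Ttc1 had -0.29 (SE 0.30, -0.96 to 0.38) and Pttg1 -0.20 (SE 0.36, -0.99 to 0.58). Ublcp1 had 0.11 (SE 0.11, -0.13 to 0.36). Adjusted p was 1 for each of the 5, and at an unadjusted p under 0.05, met by 4.55% of genes, there was again no neighbor. The intervals of Slu7, Pttg1, Pwwp2a and Ttc1 were wide, and that of Ublcp1 was the narrowest. Values of the genotypes were fully separated for Ublcp1, higher in all B-KO libraries, and for Pwwp2a, lower in all B-KO libraries, as for 9.38% of all genes. Other markers differed in mean between the same groups, though no gene of them was called. On the log2 scale, 5 of 6 GC B cell markers (median 1.77) and 20 of 20 mitotic genes (median 0.75) were higher in B-KO. So were 5 of 5 red cell markers (median 1.15), against 56.6% of all genes. In summed RPKM, B-KO naive replicate 3 lay inside the WT naive range for GC B cell markers (381, WT 259 to 446) and mitotic genes (824, WT 681 to 1009.9). It lay above that range for red cell markers (1198, WT 437 to 536). The part of these markers in the value of Ublcp1, a gene that rose in GC B cells, was not tested. Without the 3 WT libraries, which leaves WT naive replicates 2 and 3, the log2 fold changes were -0.03 for Slu7, -0.08 for Pwwp2a, 0.07 for Ttc1, 0.30 for Pttg1 and 0.12 for Ublcp1.

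In GC B cells, B-KO against WT gave -0.57 (SE 0.50, 95% interval -1.67 to 0.53) for Slu7, -0.54 (SE 0.28, -1.17 to 0.09) for Pwwp2a and -0.39 (SE 0.36, -1.17 to 0.40) for Pttg1. Ttc1 had -0.33 (SE 0.30, -0.999 to 0.34) and Ublcp1 0.13 (SE 0.11, -0.12 to 0.37). No neighbor passed the threshold, with adjusted p of 0.896 to 0.942 by limma, and 0.0073% of all genes did. At an unadjusted p under 0.05 no neighbor stood, against 5.66% of all genes. For none of the 5 were the genotypes fully separated, as they were for 9.29% of genes. Against WT GC replicate 1 alone, that is without the 3 WT libraries, the values turned to 0.55 for Slu7, 0.32 for Ttc1, 0.16 for Pttg1 and 0.05 for Pwwp2a, and to -0.01 for Ublcp1. WT GC replicates 2 and 3 were left out for their high values of the 4 nearer genes. The shift of these genes to higher fold changes follows from that choice and is a description.

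Over both cell types, the mean B-KO effect was -0.59 (SE 0.35, 95% interval -1.37 to 0.18) for Slu7, -0.48 (SE 0.20, -0.92 to -0.04) for Pwwp2a, -0.31 (SE 0.21, -0.78 to 0.16) for Ttc1, -0.30 (SE 0.25, -0.85 to 0.26) for Pttg1 and 0.12 (SE 0.08, -0.05 to 0.29) for Ublcp1. No neighbor passed, against 0.0219% of genes. Pwwp2a was the only neighbor with an unadjusted p under 0.05 by limma (adjusted p = 0.806), a level that 6% of all genes reached. Without the 3 WT libraries its value was -0.02, and the values of Slu7, Pttg1 and Ttc1 were 0.26, 0.23 and 0.19. The difference of the B-KO effect between GC and naive B cells was called for no neighbor (0.0219% of all genes, limma), with values of -0.18 (SE 0.50) for Pttg1, 0.05 (SE 0.71) for Slu7, -0.12 (SE 0.40) for Pwwp2a, -0.04 (SE 0.43) for Ttc1 and 0.01 (SE 0.16) for Ublcp1. Without the 3 WT libraries these differences were -0.13, 0.58, 0.13, 0.25 and -0.13 in the same order. For Ublcp1, the 1 neighbor with a seed match, the interval over both cell types ran from a fold of 0.964 to 1.22 in B-KO against WT.

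**Figure D4:**
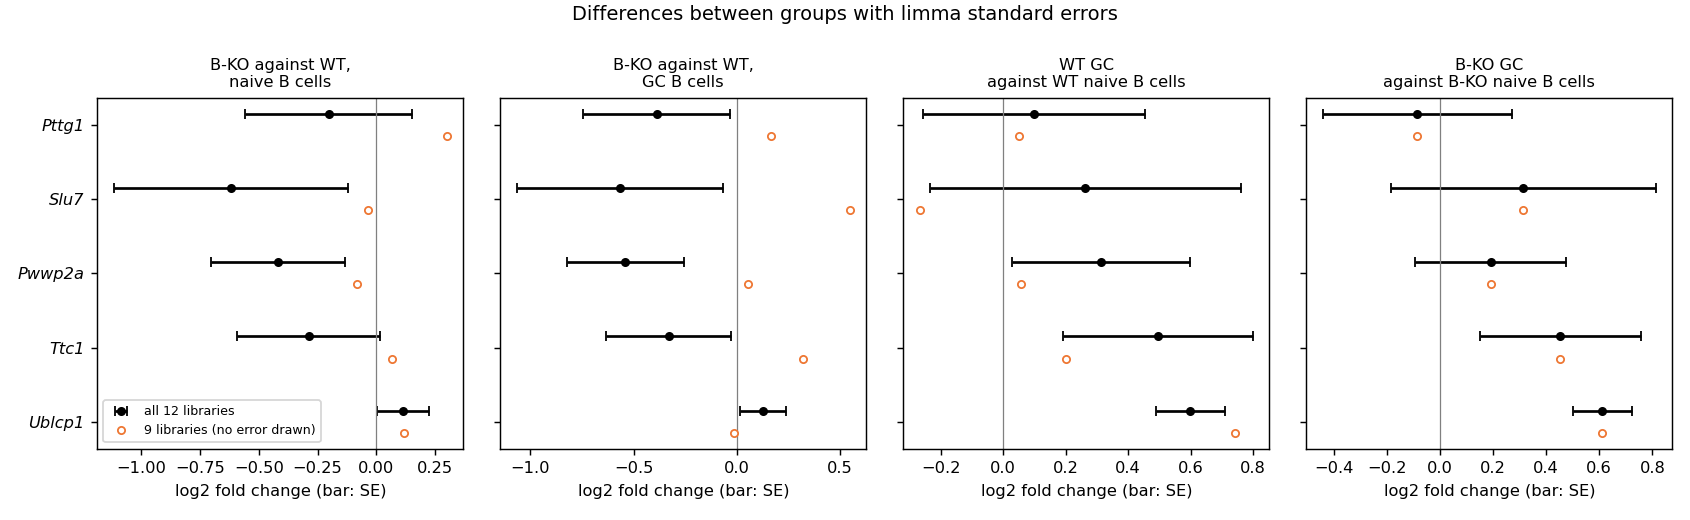
Log2 fold changes of the 5 neighbors (horizontal axis, log2(RPKM + 1) scale) in 4 comparisons, with filled points and SE bars from limma on all 12 libraries and open points without WT naive replicate 1 and WT GC replicates 2 and 3. In GC B cells the values of Slu7, Pttg1, Pwwp2a and Ttc1 move from between -0.57 and -0.33 to between 0.05 and 0.55, whereas those of Ublcp1 are 0.13 and -0.01. The libraries left out were chosen by their high values of these 4 genes, so the move is a description.

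The neighbors were also compared between GC and naive B cells. In WT mice Ublcp1 rose in GC B cells by 0.60 on the log2 scale (SE 0.11, 95% interval 0.36 to 0.84, limma adjusted p = 0.000705), a fold of 1.52. In B-KO mice it rose by 0.61 (SE 0.11, 0.37 to 0.85, limma adjusted p = 0.000758), a fold of 1.53. Each comparison called a large part of the transcriptome, 62% of tested genes in WT and 57.5% in B-KO mice, so a call for 1 of 5 neighbors lies below that share. Ttc1 had 0.50 (SE 0.30) in WT and 0.45 (SE 0.30) in B-KO mice, and Slu7 0.26 and 0.31 (SE 0.50 in each), none past the threshold. Pwwp2a had 0.31 and 0.19 (SE 0.28), and Pttg1 0.10 and -0.08 (SE 0.36). GC and naive libraries did not overlap for Ublcp1 in WT mice, as for 67.3% of genes. In B-KO mice they did not overlap for Ublcp1, Ttc1 and Slu7, each higher in GC B cells, as for 64.1% of genes. The tests of Ttc1, Slu7, Pwwp2a and Pttg1 in B-KO mice share a spread with the WT libraries. Fitted on the B-KO libraries alone, Ttc1 was also called (limma adjusted p = 0.00543). Without the 3 WT libraries, which leaves WT GC replicate 1 against WT naive replicates 2 and 3, the WT values were -0.27 for Slu7, 0.05 for Pttg1, 0.06 for Pwwp2a, 0.20 for Ttc1 and 0.74 for Ublcp1. When single libraries were left out, the WT value of Slu7 ran from -0.04 to 0.85 and that of Pttg1 from -0.17 to 0.60, so neither has a settled direction.

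Partners of each neighbor were set beside it. The 20 mitotic genes all rose in GC B cells of both genotypes, with medians of 3.92 in WT and 3.06 in B-KO mice on the log2 scale against 0.01 and 0.02 over all genes. Kif23 and Cenpe, kinesins of the spindle and the kinetochore, rose by 3.75 and 4.12 in WT mice. Of 11 partners of securin and separase, 9 rose and 1 fell in each genotype, with Espl1, which encodes separase, at 4.20 and Cdc20, an activator of the ligase that degrades securin, at 4.04 in WT mice. Pttg1, the securin gene itself, had 0.10 and -0.08 in the same comparisons and did not pass the test in either.

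Counts for the partner lists of the other neighbors are to be read against the 62% of all genes called in WT and the 57.5% called in B-KO mice, a share near which the lists of splicing factors, chromatin partners and chaperones lay. All 18 subunits of the 19S proteasome, to which Ublcp1 is recruited, rose in WT GC B cells and 17 of 18 in B-KO GC B cells, with medians of 0.68 and 0.69, close to the values of Ublcp1. Psmd14, the deubiquitinase of that particle, rose by 1.14 in WT mice. Of 10 second-step splicing factors, 6 rose and 1 fell in WT and 5 rose in B-KO mice, with Eftud2 at 0.85 and Prpf19 at 0.64 in WT mice. Of 13 partners in H2A.Z chromatin and NuRD, 10 rose in WT and 8 in B-KO mice, among them H2afz, the gene of H2A.Z (1.90), and the deacetylase gene Hdac1 (0.84) in WT mice. Of 14 chaperones and cochaperones, 6 rose and 2 fell in WT and 6 rose and 1 fell in B-KO mice, with Hspa4 at 1.25 and Dnajc7 at -0.45 in WT mice. In the genotype comparisons no gene of these 6 lists passed the threshold. The summed RPKM of the 10 splicing factors was 2741, 2694 and 2707 in WT naive and 3536, 3469 and 3246 in WT GC libraries, so the partners of Slu7 did not share its excess in WT naive replicate 1 or WT GC replicates 2 and 3.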

How the data were processed

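RNA was measured by poly-A RNA-seq according to the study's methods, whereas the labels name total RNA. Adaptor trimming and masking of low-quality bases by the authors preceded alignment with STAR (2.2.0c in the submitters' processing notes, which name mm9 and mm10), and the authors counted exon reads without regard to strand with HOMER on mm10, whose version is not given in the sources used here. The deposited table gives RPKM for 33072 RefSeq transcripts, which the authors scaled to 10000000 per library. Whole reads, recovered from value and length, were whole within 0.1 for 100% of the values checked, and 37.6% of them were counted on additional transcripts of a gene already counted.

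Of 24063 genes, 13704 were tested with limma 3.58.1 (R 4.3.3) on log2(RPKM + 1), with 4 group means over all 12 libraries, 8 residual degrees of freedom, eBayes with a trend and Benjamini-Hochberg adjustment over all genes at a threshold of 0.05. Fold changes on this scale understate changes of low genes. Each group holds 3 biological replicates per the study's methods, and p-values measure the spread between these libraries. Counting errors cover counting alone.

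Named genes are the 5 neighbors, tested genes within 1.5 Mb of Mir146, up to 4 genes a partner list by smallest p, and the 3 genes most like each neighbor. The neighbors and lists were chosen with earlier results of these data known. The alternatives were other pseudocounts, filters, scalings, weights and transcripts, limma voom on recovered reads, the compared groups alone, a replicate block and leaving out each library. Leaving out the 3 high WT libraries together was added after the data were seen, as were the spread of replicates under another scaling and in the other transcript. The pipeline was tested on simulated data with 200 changed genes.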

Additional observations from a re-analysis of the deposited data

How the results depend on the processing

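Of 470 values of the neighbors in genotype comparisons under 24 alternatives, none passed an adjusted p of 0.05 by limma (lowest 0.382). The 24 alternatives include the fit without the 3 high WT libraries, which were chosen by the values of these genes. Values of that fit are counted there but carry no test. The numbers of replicates were not taken as pairs in the main fit. Same-numbered WT and B-KO libraries had correlations of deviations of 0.0003, 0.022 and 0.062 in naive and 0.017, -0.373 and -0.565 in GC B cells. WT replicate 3 and B-KO replicate 2 reached 0.531 in GC B cells. Deviations within a group of 3 depend on one another, so these values cannot show whether the libraries were paired. With a replicate block the number of neighbors called stayed at 0 in each genotype comparison and at 1 in each comparison of cell types, and the number of all genes called was 1 in place of 3 over both cell types and for the difference between them. Neighbors called in B-KO GC against B-KO naive B cells ranged from 1 to 3 over the alternatives. They numbered 2 with only the groups compared, against 1 in the main fit, which called 57.5% of all genes. Beside Ublcp1, Ttc1 was called in 2 of the 24 alternatives and Slu7 in 1. Neighbors called between WT GC and WT naive libraries ranged from 1 to 4 when single libraries were left out, with 4 without WT naive replicate 1 and 2 without WT GC replicate 1. The values of these genes set WT naive replicate 1 and WT GC replicate 1 apart from their fellow replicates. The calls without either library therefore carry no weight.

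Without the 3 high WT libraries, log2 fold changes reversed to 0.30 (Pttg1) and 0.0661 (Ttc1) for B-KO minus WT among naive B cells and to 0.16 (Pttg1), 0.55 (Slu7), 0.0523 (Pwwp2a), 0.32 (Ttc1) and -0.0131 (Ublcp1) among GC B cells. Averaged over the cell types they reversed to 0.23 (Pttg1), 0.26 (Slu7) and 0.19 (Ttc1). The difference between cell types reversed to 0.13 (Pwwp2a), 0.25 (Ttc1) and -0.13 (Ublcp1), and WT GC against WT naive to -0.27 (Slu7). With array quality weights the difference became 0.20 (Pttg1), 0.22 (Pwwp2a), 0.30 (Ttc1) and -0.0179 (Ublcp1), and WT GC against WT naive -0.34 (Pttg1), -0.44 (Slu7) and -0.0435 (Pwwp2a). With quantile normalization, Ublcp1 had a difference of -0.00834 and Pttg1 -0.0205 in WT GC against WT naive, and with median of ratios Ublcp1 had a difference of -0.000364. The cause was not tested.

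When single libraries were left out, the genotype effect among naive B cells ranged from -0.48 to 0.30 for Pttg1 and -0.50 to 0.0661 for Ttc1, positive without WT naive replicate 1. The difference between cell types ranged from -0.69 to 0.0899 (Pttg1), -0.53 to 0.36 (Slu7), -0.46 to 0.0793 (Pwwp2a), -0.40 to 0.18 (Ttc1) and -0.0744 to 0.14 (Ublcp1). WT GC against WT naive ranged from -0.17 to 0.60 (Pttg1) and -0.0439 to 0.85 (Slu7).

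Counts over all genes for the genotype ran from 0 (voom on recovered reads) to 83 (array quality weights) among naive B cells, with 33 without B-KO naive replicate 3, from 0 to 4 among GC B cells, from 0 to 27 over both and from 0 to 4 for the difference. With every transcript as a row, 12879 and 11964 were called between cell types in WT and B-KO mice. The 95% intervals of the B-KO fold among naive B cells reached from 0.304 to 1.40 for Slu7, from 0.505 to 1.49 for Pttg1 and from 0.914 to 1.28 for Ublcp1.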
